A study of Saccharomyces cerevisiae with 6 samples.

Results

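The budding yeast cell wall was followed through 36 genes for its structural proteins, its glucan and chitin enzymes, the yapsin proteases and the Slt2 signalling pathway. The genes were chosen by name, with earlier results of these data known, and were found through the array's platform annotation. Each of the 36 had 1 probe set among the 5498 tested probe sets of Saccharomyces cerevisiae, which cover 5449 genes. The list holds 14 structural proteins, 15 glucan and chitin enzymes, 3 yapsins and 4 genes of the Slt2 pathway. None of these probe sets carries a suffix for shared transcripts, and each lay above the array's background on all 6 arrays.

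The study compared mRNA of wild type cells with that of cells lacking VPS4, the ATPase that takes ESCRT-III off endosomal membranes, in work on ESCRT mutants and amino acid recycling. Both groups have 3 arrays, numbered 3, 4 and 6 for wild type and 4, 5 and 6 for the deletion (Delta VPS4), and all cells grew to mid-log phase at 26 °C in YNB synthetic medium with the amino acids they needed. The labels name no strain background or other allele, and do not say whether the deletion strain is 1 clone or the replicates are separate cultures, so a p-value here is set against the scatter among the arrays alone, and that scatter may be technical. VPS4 read 11.44 ± 0.04 (SD, n = 3) on the wild type arrays and 1.49 ± 0.23 on the deletion arrays, at or below background on each of its arrays (at least 760-fold lower; limma adjusted p = 1.30e-07).

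Values are log2 expression after GCRMA, so a difference of 1 is a doubling. A gene is said to rise or fall where its difference, deletion minus wild type, had a Benjamini-Hochberg adjusted p at or under 0.05 in limma over all 5498 probe sets. Wild type replicate 3 stood apart: Pearson's r across probe sets, which are not independent, was 0.9926 against either of the other wild type arrays and 0.9991 between those, which correlated with the deletion arrays at 0.9936 to 0.9943, above their correlation with replicate 3. The alpha-cell genes MF(ALPHA)1, MF(ALPHA)2, STE3 and SAG1 lay between 11.72 and 13.11 on the 6 arrays, and 7 genes of a cells between 2.10 and 7.44; of both lists 0 rose (0 at an unadjusted p under 0.05), while 2 of 4 and 2 of 7 fell, against 1.46% of all tested probe sets. Without replicate 3, 3 of 4 and 4 of 7 fell, against 10.1%. What part the lower mating genes or replicate 3 play in the results below was not tested, beyond the values given without that array.

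The wall is a mesh of β-1,3-glucan, built at the plasma membrane and cross-linked to β-1,6-glucan, chitin and an outer layer of mannoproteins. Most of those proteins are held either through a remnant of a GPI anchor or, in the PIR family, through a direct bond to glucan. Damage to the wall is read by membrane sensors that act through Rho1, Pkc1 and a kinase cascade ending in the kinase Slt2, which activates the transcription factor Rlm1 and with it a set of wall genes. Chitin synthase 3 and several wall proteins reach the surface through the same Golgi and endosomal routes that serve other membrane proteins.

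Of the 36 genes, 5 rose and 4 fell in the deletion. SPI1, PIR1, CRH1, SCW10 and GAS1 were higher, and CWP1, UTR2, YPS6 and KDX1 were lower. Together they make 25.0% of the list, where 4.27% of all tested probe sets passed (2.82% higher and 1.46% lower). Since the list was chosen with earlier results of these data known, the shares here and below do not test whether wall genes changed more often than others. At an unadjusted p under 0.05 in limma 18 of the 36 genes differed, against 17.4% of all tested probe sets. The changes were small: the fold lay between 1.06 for GAS1 and 1.61 for SPI1. The median difference over the list was 0.01 and over all tested probe sets −0.0019, and the median absolute difference was 0.11 against 0.061. Arrays of a group also lay closer together for these genes, with a median SD of 0.051 in wild type and 0.038 in the deletion against 0.077 and 0.045 over all probe sets; the part of this in the share that passed was not tested. Since the RNA came from whole cultures, a change in the cells that carry a transcript and a change in transcript per cell cannot be told apart.

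**Figure D1:**
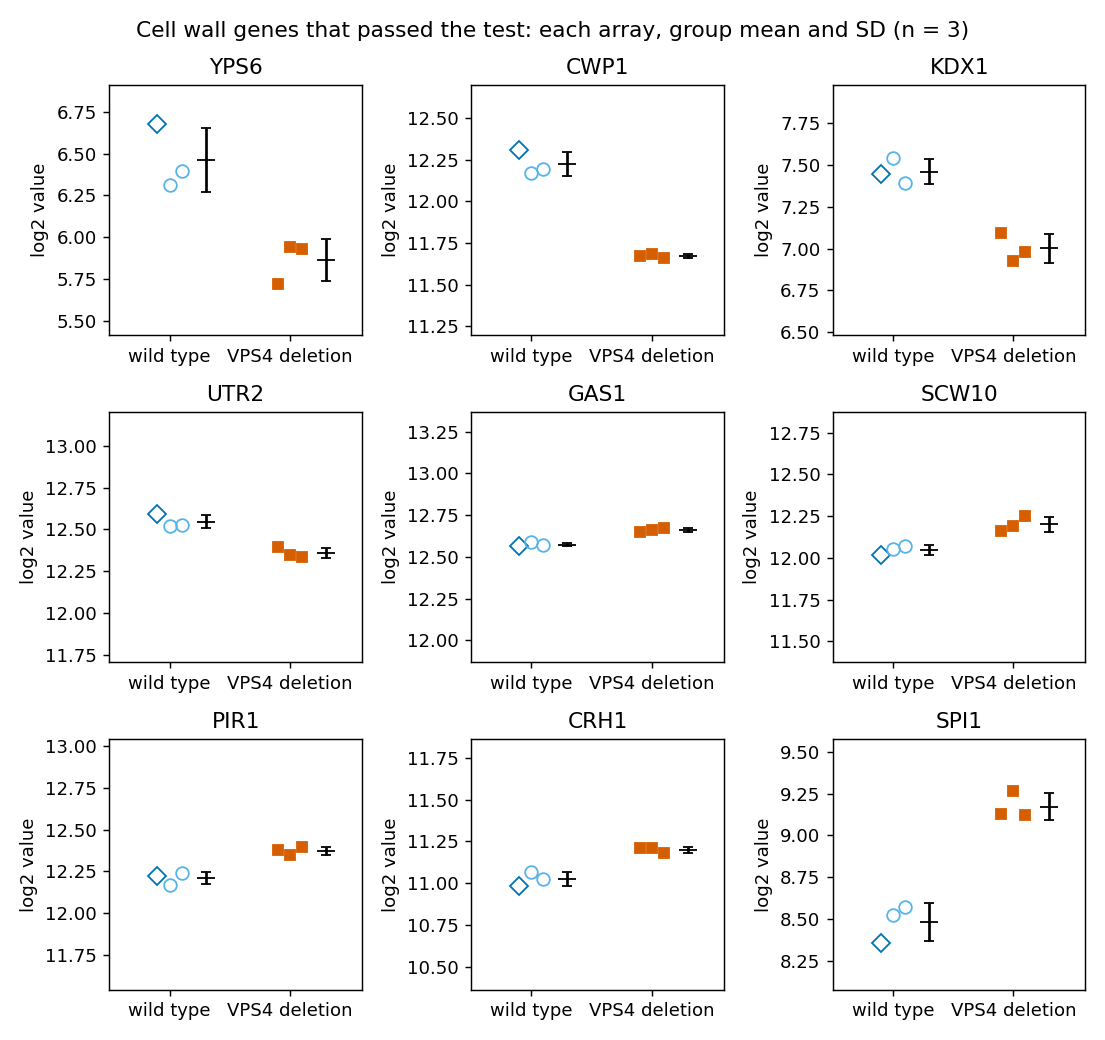
Log2 value on each array for the 9 genes that passed the test, with wild type replicate 3 as a diamond, replicates 4 and 6 as circles and the deletion arrays as squares, and the group mean with SD (n = 3) in black; every panel spans the same range. In each panel the 3 deletion arrays lie wholly above or wholly below the 3 wild type arrays, by the widest margin for SPI1 and CWP1 and the narrowest for GAS1.

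Among the structural proteins 2 rose, 1 fell and 11 did not pass. CWP1 (YKL096W) encodes a GPI-anchored mannoprotein of the wall that is found at birth scars. Its values were 12.30, 12.17 and 12.19 in wild type replicates 3, 4 and 6 and 11.67, 11.68 and 11.66 in deletion replicates 4, 5 and 6. The deletion arrays lay close to each other and all below wild type. CWP1 fell 1.46-fold, by −0.55 ± 0.04 (SE; limma adjusted p = 0.00217). CWP2, the adjoining gene, encodes another GPI-anchored mannoprotein and had means of 13.24 ± 0.03 and 13.27 ± 0.01 in wild type and deletion (SD, n = 3), a difference of 0.04 with a 95% confidence interval from −0.01 to 0.08 (limma adjusted p = 0.359).

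SPI1 (YER150W), a GPI-anchored wall protein tied to weak acid tolerance and induced by stress, was the member with the largest called change. Wild type replicates 3, 4 and 6 read 8.35, 8.52 and 8.57, and the deletion replicates 9.13, 9.26 and 9.12. All 3 deletion arrays were above all 3 wild type arrays. The rise was 1.61-fold, or 0.69 ± 0.07 (SE; limma adjusted p = 0.00666). SED1, a GPI-anchored wall protein linked to stress and stationary phase, stood at 13.22 ± 0.01 and 13.22 ± 0.03 in wild type and deletion, with overlapping arrays and an interval of the difference from −0.05 to 0.05.

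The 4 PIR proteins of the list carry internal repeats and are bound to glucan directly. PIR1 (YKL164C) read 12.22, 12.17 and 12.24 in wild type and 12.38, 12.35 and 12.39 in the deletion. The groups did not overlap, and PIR1 rose 1.12-fold, by 0.16 ± 0.03 (SE; limma adjusted p = 0.0195). PIR3, its neighbour on the chromosome, read 8.28 in wild type replicate 3, 9.65 and 9.56 in replicates 4 and 6, and 9.55, 9.57 and 9.72 in the deletion. Replicate 3 alone was low, with a shift of −1.32 log2 against the mean of the other wild type arrays. The difference of 0.45 ± 0.35 (SE) for PIR3 did not pass (limma adjusted p = 0.588), and without replicate 3 it was 0.0098. CIS3 and HSP150, the other 2 PIR genes of the list, adjoin each other and differed by 0.08 (interval −0.0019 to 0.17) and −0.0045 (interval −0.06 to 0.06).

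None of the other 6 structural genes passed, with adjusted p-values in limma from 0.148 to 0.939. PST1, a GPI-anchored protein whose transcript is known to respond to wall damage, read 10.74, 10.69 and 10.74 in wild type and 10.78, 10.88 and 10.86 in the deletion. Its groups did not overlap, and its difference of 0.12 ± 0.04 (SE) did not pass (limma adjusted p = 0.148). CCW12 and CCW14, which encode abundant GPI-anchored mannoproteins, differed by 0.02 and 0.0038, with intervals from −0.03 to 0.06 and from −0.04 to 0.04. The values of CCW12 reached 13.60, close to the 13.61 that was the highest value of any tested probe set. An array may compress differences there. CWP2, SED1, SCW4, HSP150 and BGL2 also lay high, with wild type means of 13.24, 13.22, 12.98, 12.94 and 12.84. Whether any of these differences was compressed was not tested.

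TIR1, TIR2 and TIR3, serine- and alanine-rich wall proteins known for induction by lack of oxygen, differed by −0.17, 0.38 and 0.01. TIR2 read 4.00, 4.43 and 4.41 in wild type and 4.74, 4.59 and 4.64 in the deletion. Its groups did not overlap, but replicate 3 lay 0.42 below the other wild type arrays, and the gene did not pass (limma adjusted p = 0.203). The arrays of TIR1 and of TIR3 overlapped between the genotypes.

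Among the 15 glucan and chitin enzymes 3 rose, 1 fell and 11 did not pass. CRH1 and UTR2 encode 2 related transglycosylases that join chitin to glucan, and they moved in opposite directions. CRH1 (YGR189C) read 10.98, 11.06 and 11.03 in wild type and 11.21, 11.21 and 11.18 in the deletion, while UTR2 (YEL040W) read 12.59, 12.52 and 12.53 in wild type and 12.39, 12.35 and 12.33 in the deletion. Neither gene's groups overlapped. CRH1 rose 1.13-fold, by 0.18 ± 0.03 (SE; limma adjusted p = 0.0260), and UTR2 fell 1.14-fold, by −0.19 ± 0.03 (SE; limma adjusted p = 0.0156).

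GAS1 (YMR307W) encodes the main glucanosyltransferase, a GPI-anchored enzyme that lengthens β-1,3-glucan chains. Its arrays read 12.56, 12.59 and 12.57 in wild type and 12.65, 12.66 and 12.67 in the deletion. The groups were tight and did not overlap, and GAS1 rose 1.06-fold, by 0.09 ± 0.02 (SE; limma adjusted p = 0.0408). GAS5, of the same family, read 11.80, 11.73 and 11.74 against 11.65, 11.65 and 11.69 and differed by −0.09 ± 0.03 (SE), which did not pass (limma adjusted p = 0.163). GAS3, another relative, differed by −0.02, with an interval from −0.14 to 0.11.

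SCW10 (YMR305C) and SCW4 encode paralogous wall proteins that resemble glucanases, and SCW11 a related protein made mainly in daughter cells. SCW10 read 12.02, 12.06 and 12.07 in wild type and 12.16, 12.19 and 12.25 in the deletion. The groups did not overlap, and SCW10 rose 1.11-fold, by 0.15 ± 0.03 (SE; limma adjusted p = 0.0386). The reading for SCW11 was 10.42, 10.31 and 10.39 in wild type and 10.58, 10.54 and 10.67 in the deletion. These groups did not overlap either, but the difference of 0.22 ± 0.05 (SE) lay just outside the threshold (limma adjusted p = 0.0531). SCW4 differed by 0.05 (interval −0.0063 to 0.11), and BGL2, the major wall glucanase, by −0.0068 (interval −0.04 to 0.03).

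FKS1 and GSC2 encode the alternative catalytic subunits of β-1,3-glucan synthase, FKS1 the one used in growing cells and GSC2 the one known to be induced by stress. FKS1 had means of 11.61 ± 0.06 and 11.60 ± 0.05 in wild type and deletion (SD, n = 3), with an interval of the difference from −0.10 to 0.09. GSC2 read 9.22, 9.61 and 9.74 in wild type and 9.97, 10.06 and 10.04 in the deletion. All deletion arrays were above all wild type arrays, with replicate 3 the lowest. The difference of 0.50 ± 0.13 (SE) did not pass (limma adjusted p = 0.0879), and without replicate 3 GSC2 rose by 0.35 ± 0.04 (SE; limma adjusted p = 0.000527).

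Of the 4 chitin genes, CHS3 and GFA1 were lower on each deletion array. CHS3, the synthase of most wall chitin, read 10.18, 10.24 and 10.15 in wild type and 9.98, 10.05 and 9.87 in the deletion. GFA1 encodes an enzyme on the path to the amino sugar that chitin is built from. It read 10.26, 10.24 and 10.32 in wild type and 10.14, 10.09 and 9.95 in the deletion. In neither gene did the groups overlap. The differences, −0.23 ± 0.05 for CHS3 and −0.21 ± 0.06 for GFA1 (SE), did not pass (limma adjusted p = 0.0664 and 0.0970). CHS2, the synthase of the primary septum, differed by 0.11 (interval −0.0088 to 0.23), and CHS1, the repair synthase, by −0.01 (interval −0.13 to 0.10).

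**Figure D2:**
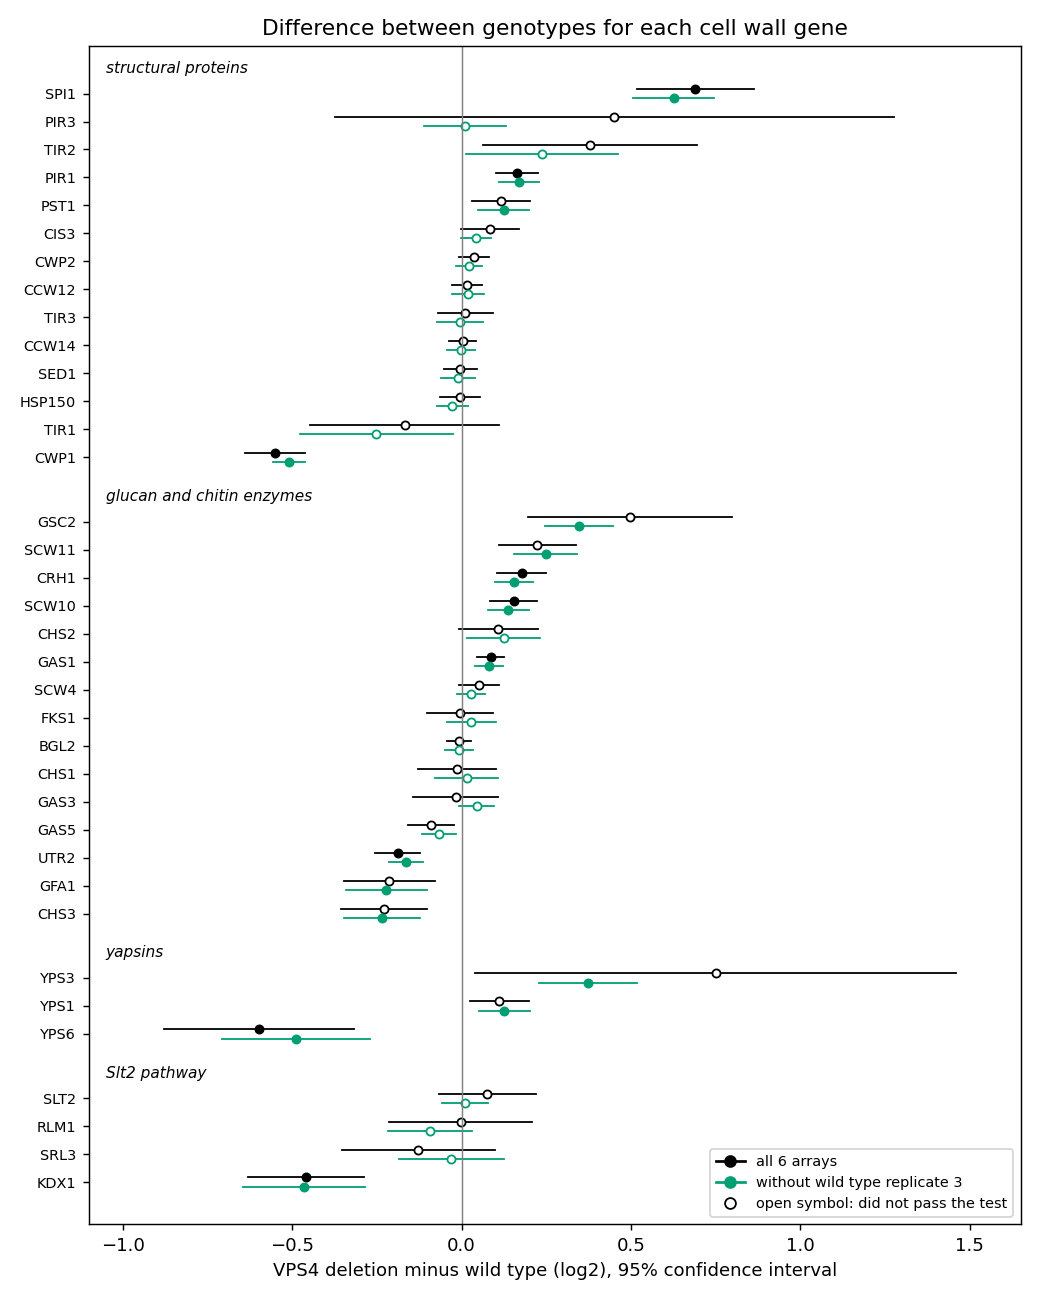
Difference between genotypes on the log2 scale with its 95% confidence interval for each of the 36 genes, from all 6 arrays (black) and without wild type replicate 3 (green); filled symbols passed the test. Intervals of PIR3, YPS3 and GSC2 narrow most visibly once replicate 3 is left out, and CRH1 and UTR2 lie on opposite sides of 0.

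The yapsins are GPI-anchored aspartyl proteases that trim and shed wall proteins. The 3 measured here differed in both directions: 1 fell and 0 rose. In limma 2 were higher and 1 lower at an unadjusted p under 0.05, where 17.4% of all tested probe sets differed. YPS6 (YIR039C) read 6.68, 6.31 and 6.39 in wild type and 5.72, 5.94 and 5.93 in the deletion. It fell 1.51-fold, by −0.60 ± 0.12 (SE; limma adjusted p = 0.0424), with replicate 3 the highest wild type array. YPS3 read 6.72 in wild type replicate 3, 7.94 and 7.76 in replicates 4 and 6, and 8.19, 8.23 and 8.26 in the deletion. Every deletion array was above wild type, yet replicate 3 lay 1.13 log2 below its group's other arrays, and the difference of 0.75 ± 0.30 (SE) did not pass (limma adjusted p = 0.262). YPS1, the neighbour of YPS3, read 10.01, 9.98 and 9.96 against 10.13, 10.10 and 10.05, groups that did not overlap, and differed by 0.11 ± 0.04 (SE; limma adjusted p = 0.170).

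In the Slt2 pathway 1 gene fell, 0 rose and 3 did not pass. In limma 0 were higher and 1 lower at an unadjusted p under 0.05, where 17.4% of all tested probe sets differed. KDX1 (YKL161C) encodes a kinase-like relative of Slt2 and is known as a target of Rlm1 that responds to wall stress. Its values were 7.45, 7.54 and 7.39 in wild type and 7.10, 6.93 and 6.98 in the deletion, without overlap. KDX1 fell 1.37-fold, by −0.46 ± 0.07 (SE; limma adjusted p = 0.0185). The kinase gene SLT2 read 10.30, 10.46 and 10.54 in wild type and 10.50, 10.50 and 10.53 in the deletion, a difference of 0.08 with an interval from −0.07 to 0.22. RLM1 read 8.69, 8.91 and 8.999 against 8.95, 8.83 and 8.81, a difference of −0.0022 with an interval from −0.21 to 0.21. In SLT2 and in RLM1 the genotypes overlapped, and replicate 3 was the lowest of the 6 arrays. SRL3, named as a suppressor of the lethality of losing the checkpoint kinase Rad53, differed by −0.13 (interval −0.35 to 0.10).

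Neighbours on the chromosome were read from a gene table of assembly R64. Among the 4 pairs of members with no gene between them, CWP1 fell and CWP2 did not pass. PIR1 rose and PIR3 did not pass, and its difference of 0.45 became 0.0098 without wild type replicate 3. Neither HSP150 nor CIS3 passed. YPS1 and YPS3 did not pass either, and the difference of 0.75 for YPS3 became 0.37 without that array, where both rose. Of the 2 pairs with 1 gene between them, SCW10 and GAS1 both rose, while KDX1 fell and PIR3 did not pass. Of the 2 pairs with 2 genes between them, PIR1 rose and KDX1 fell, and neither SCW4 nor BGL2 passed.

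**Figure D3:**
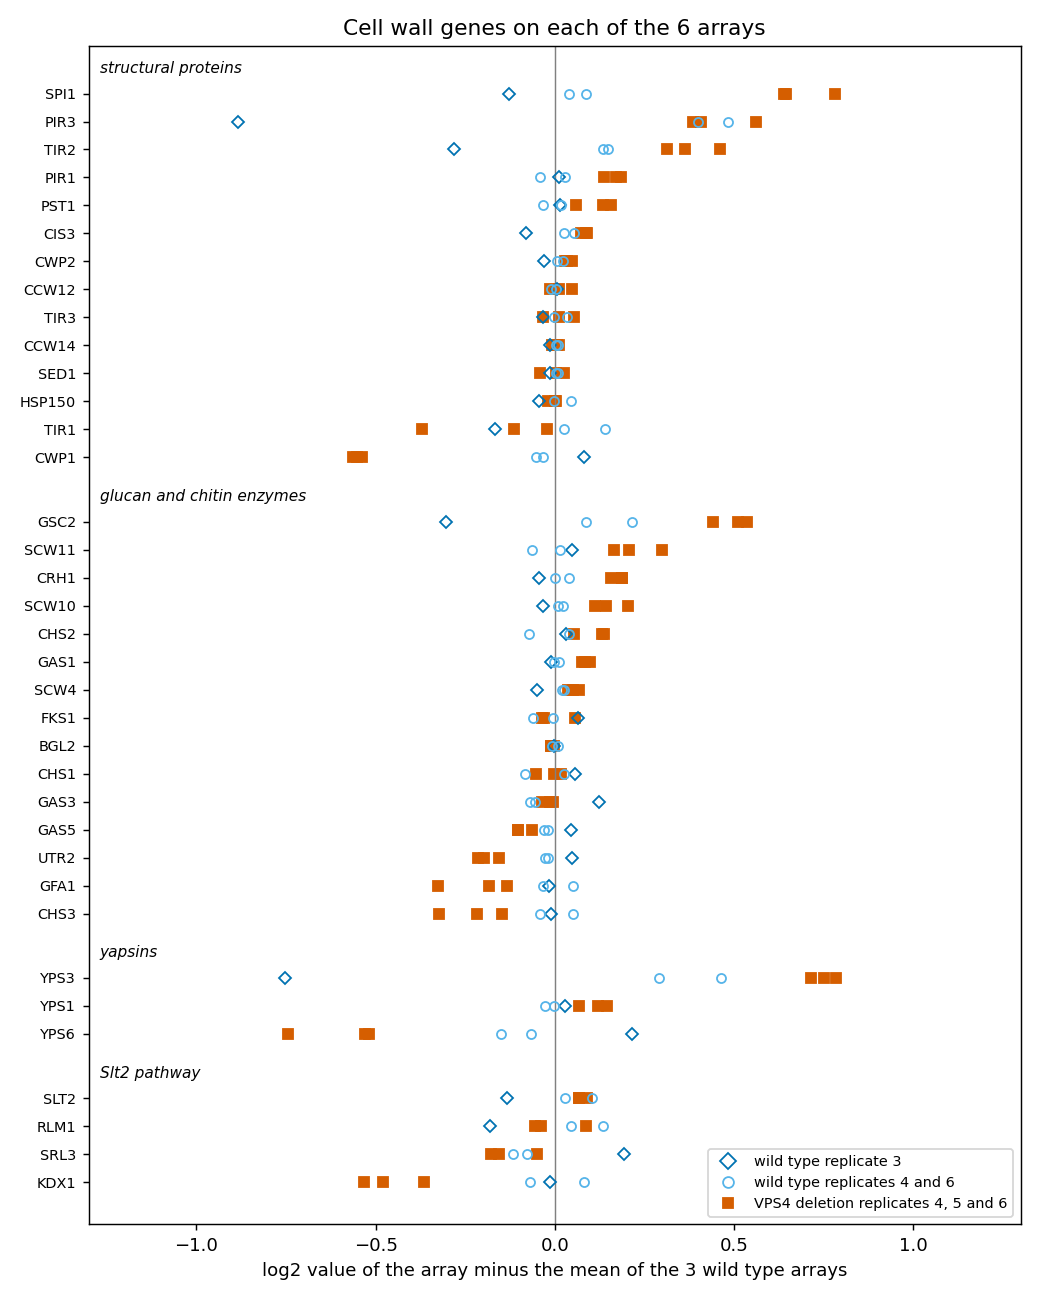
Each array's log2 value minus the mean of the 3 wild type arrays for the 36 genes, in the 4 groups of the list (diamond, wild type replicate 3; circles, wild type replicates 4 and 6; squares, the deletion). The diamonds of PIR3 and YPS3 lie far to the left of the other arrays, and most squares of one gene lie close together.

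The groups did not overlap for 22 of the 36 genes, or 61.1%, against 24.8% of all tested probe sets. These 22 were 7 structural genes, 11 enzyme genes, the 3 yapsins and KDX1. Wild type replicate 3 lay outside the range of the other 5 arrays for 24 of the 36 genes (66.7%), against 56.1% of all probe sets, and lay over 1 log2 from the mean of replicates 4 and 6 in PIR3 and YPS3, while 1.33% of all probe sets did so. It was lower there in both, and its median shift over the list was −0.02.

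Which genes passed depended on the arrays used. Without wild type replicate 3, 10 of the 36 rose and 6 fell, or 44.4%, where 22.0% of all probe sets passed (11.9% higher and 10.1% lower). The 9 genes named above all passed there too; PST1, GSC2, SCW11, YPS1 and YPS3 joined those that rose, and CHS3 and GFA1 those that fell. In that fit YPS3 rose by 0.37 ± 0.06, SCW11 by 0.25 ± 0.04, PST1 by 0.12 ± 0.03 and YPS1 by 0.13 ± 0.03 (SE; limma adjusted p = 0.00304, 0.00249, 0.0266 and 0.0244). CHS3 fell by 0.23 and GFA1 fell by 0.22 (limma adjusted p = 0.00927 and 0.0160). Leaving out any of the other 5 arrays lowered the counts, which became 2 higher and 2 lower with wild type replicate 4 removed, and 2 and 1 with wild type replicate 6 removed. Over all probe sets the counts fell as well, from 155 and 80 to 81 and 37 and to 67 and 36. Among the deletion arrays, removing replicate 4 or replicate 6 gave 1 and 1. Removing replicate 5 gave 0 and 1, with 8 and 6 at an unadjusted p under 0.05 in limma. That unadjusted count was not made over all probe sets. Over all probe sets, removing deletion replicates 4, 6 and 5 gave 44 and 14, 37 and 10, and 17 and 5. CWP1 passed in each of these 6 fits, SPI1 in 5, with an adjusted p of 0.0524 without deletion replicate 5 in limma, and PIR1, CRH1 and UTR2 in 2 each. KDX1, YPS6, SCW10 and GAS1 passed in 1, the fit without wild type replicate 3.

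Another 4 lists of genes of the wall and its signalling had 72 genes measured of 75 listed. They held 2 that rose and 0 that fell, or 2.78%, against 4.27% of all tested probe sets. At an unadjusted p under 0.05 in limma 7 were higher and 10 were lower. Over all 5498 tested probe sets 529 were higher and 429 lower by that measure, or 17.4%. Without wild type replicate 3 these lists held 8 that rose and 6 that fell, or 19.4%, against 22.0% of all tested probe sets. Among 23 genes of the sensors, the Rho1 module and the kinase cascade, 1 rose and 22 did not pass. At an unadjusted p under 0.05 in limma 2 of them were higher and 5 lower, where 17.4% of all tested probe sets differed. Without replicate 3, 2 of them rose and 2 fell, or 17.4%, against 22.0% of all tested probe sets. The gene that rose with all 6 arrays was SDP1, a stress-inducible phosphatase that acts on Slt2. SDP1 read 5.69, 5.16 and 5.33 in wild type and 6.36, 6.67 and 6.39 in the deletion, without overlap, and rose 2.11-fold, by 1.08 ± 0.16 (SE; limma adjusted p = 0.0144).

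Among 21 further genes of glucan synthesis and remodelling 1 rose and 20 did not pass. Without replicate 3, 3 of these genes rose and 1 fell, or 19.0%, against 22.0% of all tested probe sets. SUN4, a wall protein of the SUN family that acts in cell separation, read 11.01, 11.00 and 11.04 in wild type and 11.23, 11.25 and 11.24 in the deletion. The groups did not overlap, and SUN4 rose 1.17-fold, by 0.22 ± 0.02 (SE; limma adjusted p = 0.00705). NCA3, a relative of SUN4 chosen after its values were seen, read 6.67 in wild type replicate 3 and 10.40 and 10.22 in replicates 4 and 6, against 9.60, 9.50 and 9.65 in the deletion. Its difference was 0.49 ± 0.94 (SE; limma adjusted p = 0.854), and without replicate 3 it fell by 0.73 (limma adjusted p = 2.25e-05).

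Of 12 further chitin genes 0 passed. In limma 1 was higher and 4 were lower at an unadjusted p under 0.05, where 17.4% of all tested probe sets differed. The smallest p belonged to CHS7, needed for Chs3 to leave the endoplasmic reticulum, with means of 10.30 ± 0.12 and 10.04 ± 0.02 in wild type and deletion (SD, n = 3), which differed by −0.27 ± 0.06 (SE; limma adjusted p = 0.0645). Without replicate 3, 2 genes of that list rose and 3 fell, or 41.7%, against 22.0% of all tested probe sets. Of 16 further wall mannoproteins and yapsins 0 passed. In limma 1 was higher and 1 lower at an unadjusted p under 0.05, where 17.4% of all tested probe sets differed. The smallest p was that of the yapsin gene MKC7, with −0.16 ± 0.06 (SE; limma adjusted p = 0.196). Without replicate 3, 1 of these 16 genes rose and 0 fell, or 6.25%, against 22.0% of all tested probe sets.

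**Figure D4:**
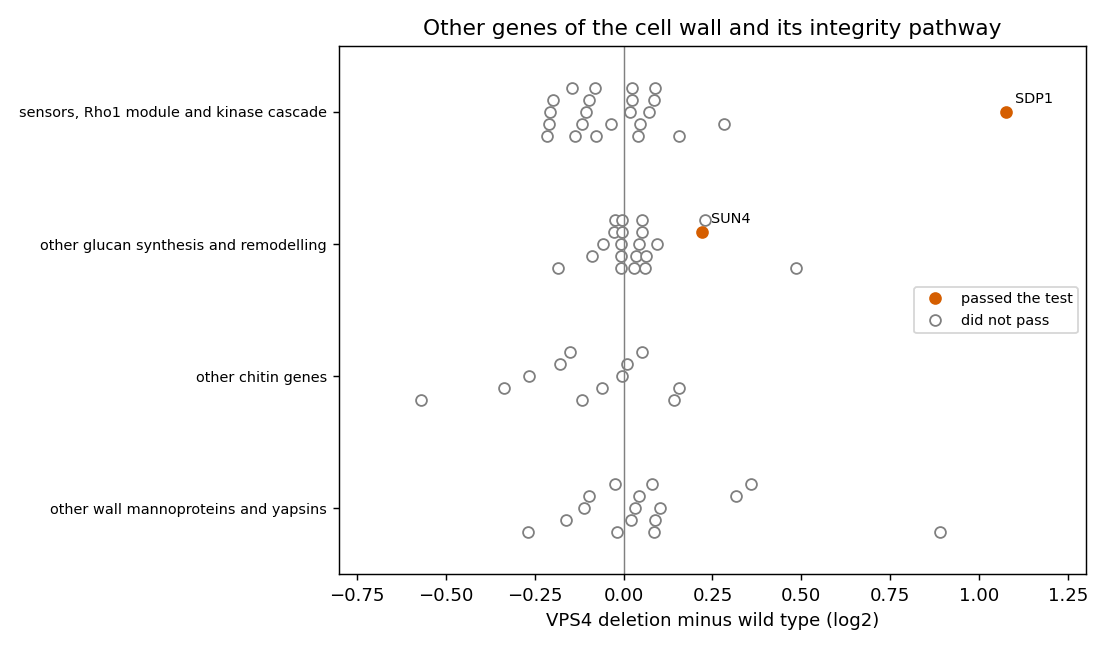
Difference between genotypes on the log2 scale for each measured gene of 4 further lists of the wall and its signalling, with filled symbols for genes that passed the test (points are offset vertically for legibility). SDP1 stands at 1.08 and SUN4 at 0.22, and the remaining genes did not pass.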

How the data were processed

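The authors deposited log2 expression values, 1 per probe set and array, which they made with GCRMA per the submitters' processing notes (no version is named). GCRMA corrects the background, quantile normalizes and summarises probes, and it draws dim probe sets together. Nothing further was normalized. Of 10928 probe sets, 5498 were annotated to Saccharomyces cerevisiae and tested. Another 1746 belong to a second yeast, and their percentile 95 on each array (1.82 to 1.92) served as background. Genes were named through the platform annotation, and neighbours through a RefSeq gene table of assembly R64. The array's build is not given in these sources, so coordinates are left out, and no sequence was used here.

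The genotypes were compared in limma 3.58.1 (R 4.3.3) on all 5498 probe sets with genotype alone in the model, a trended eBayes prior and two-sided p-values under Benjamini-Hochberg adjustment. This fit was also run on simulated data in which each probe set had the same SD on all arrays. No simulated array stood apart as wild type replicate 3 did, so that run does not bear on it. The number of arrays limits the precision, and an exact permutation test of 3 against 3 cannot go below 0.1. Named genes are VPS4, the 36 members, and of each further list the genes that passed (at most 4) or else the one with the smallest p; mating genes are given as a range, and NCA3 was named outside this rule. WSC1, DAN2 and DAN3 were matched through synonyms. FLO5, NCW2 and YLR042C were not analysed here, and 1 further gene list is not reported here. The members and lists were chosen with earlier results of these data known. Alternatives changed the variance prior, the filter on dim probe sets, the normalization, the probe sets tested, the weighting of arrays, the arrays used, a block on title numbers and the threshold.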

Additional observations from a re-analysis of the deposited data

How the results depend on the processing

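The count of wall genes that rose and fell, 5 and 4, stood at 5 and 4 with a robust variance prior, without dim probe sets and after quantile normalization. It was 1 and 2 without the variance trend, 3 and 4 after median centring, 3 and 3 with all probe sets tested, 10 and 7 with array weights, 1 and 1 at a threshold of 0.01 and 7 and 6 at 0.1. Leaving out 1 array gave 0 to 10 higher and 1 to 6 lower. The title number as a replicate block gave 7 and 6, and 478 and 380 over all probe sets against 155 and 80. Numbers 3 and 5 each occur on 1 array, so wild type replicate 3 and deletion replicate 5 do not bear on the difference there. That fit rests on replicates 4 and 6 of each genotype. Whether the numbers pair the arrays could not be decided. Deviations from the group means correlated at 0.02 between arrays of number 4 and −0.06 between those of number 6. Between arrays of unlike number the range was −0.08 to 0.12. The wild type mean holds replicate 3, which stood apart, and this shapes the deviations of the other wild type arrays. Over all 5498 probe sets the counts were 122 and 78 without the variance trend and 138 and 103 after median centring. With all probe sets of the array in the fit they were 136 and 65. They were 600 and 436 with array weights, 49 and 18 at a threshold of 0.01, 272 and 150 at 0.1, and 17 to 656 and 5 to 556 with 1 array left out. The cause of these moves was not tested, beyond the thresholds' own construction. A choice among probe sets was not run because each gene had 1.

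The 9 genes that passed kept their direction in all 16 alternatives, but most of these could not change it. A change of variance prior, tested probe sets or threshold leaves the difference as it is. The groups did not overlap for any of the 9, so dropping, weighting or blocking arrays cannot turn the sign. Their calls were less steady. GAS1 lost its call in 10 of the 16, SCW10 in 9 and YPS6 in 8. PIR1, CRH1, UTR2 and KDX1 lost theirs in 6 each, SPI1 in 1 and CWP1 in 0. Of the other 27, those that changed sign did so near 0 and did not pass there. The list's median difference was −0.0050 after median centring. There CCW12, CCW14 and TIR3 stood at −0.0027, −0.015 and −0.0072. HSP150 was 0.0024 after quantile normalization. With array weights CCW14, TIR3, FKS1, GAS3 and CHS1 were −0.0022, −0.0018, 0.028, 0.037 and 0.017, and with the replicate block FKS1, GAS3 and CHS1 were 0.042, 0.053 and 0.00082. With 1 array left out, the differences ran from −0.00068 to 0.031 for CCW12, −0.0027 to 0.0088 for CCW14, −0.0095 to 0.033 for TIR3, −0.034 to 0.028 for FKS1, −0.051 to 0.045 for GAS3, −0.055 to 0.016 for CHS1, −0.027 to 0.019 for HSP150, −0.092 to 0.065 for RLM1 and −0.019 to 0.015 for SED1.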
